A study of Homo sapiens with 4 samples.

Results

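Chromosome 19 carries 249 protein-coding genes whose symbols begin with ZNF, of 20098 protein-coding genes on the chromosomes that held loops. A chromatin loop was counted as a ZNF loop when an anchor overlapped one of these genes or the 10 kb on either side of it. The rule uses gene names and positions alone. By this rule 209 of 836 loops of chromosome 19 in vehicle replicate 1 were ZNF loops, 268 of 967 in vehicle replicate 2, 126 of 577 in THZ1 replicate 1 and 100 of 497 in THZ1 replicate 2. The lists held 20768, 24219, 17222 and 15066 loops over the whole genome in the same order, and all values for single libraries below keep this order.

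The loops come from Arima-HiC, a method that ligates and sequences pieces of DNA that lie close together in the nucleus. The cells were MDA-MB-231, an established TNBC line whose genotype the labels give as WT. They received 75 nM THZ1, a covalent inhibitor of CDK7, or the DMSO solvent as vehicle, both for 48 h. Each condition had 2 libraries, which the labels describe as technical replicates of the 1 line, so the spread between them may be technical and p-values cannot reach beyond it. The lists hold no expression values, so the identity of the line could not be checked against marker genes. They also hold no totals of reads. The paper gives a range of read depth over the samples, so the depth of each library is seen only through the contacts at called loops. The median ZNF loop had 26, 25, 29.5 and 31 contacts.

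ZNF genes encode proteins with arrays of C2H2 zinc fingers, which bind DNA, and most of those on chromosome 19 also carry a KRAB domain, which recruits the corepressor TRIM28 and through it the histone methyltransferase SETDB1 and heterochromatin protein HP1. They arose by repeated tandem duplication, lie in clusters of similar genes along the chromosome, and many repress transposable elements. A chromatin loop in Hi-C is a pair of places that touch more often than their surroundings, and many loops end at sites of CTCF in opposite orientation, where cohesin is held.

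Anchors of 1 loop can carry short stretches of nearly the same letters, and how these arose was not tested. The CTCF core motif, searched on both strands, was found in both anchors of several ZNF loops. As examples, 6 matches are shown that come as near-copies from the anchors of 3 loops that all 4 lists share. Sequences are from GRCh37, read 5′ to 3′ on the strand given, and capitals mark the motif match.
ZNF83 anchor, chr19:53193849-53193876, plus strand: gtttagaaCCGGCAGAGGGCggggccgg
ZNF845 and ZNF525 anchor, chr19:53868836-53868863, minus strand: ctttagtaCCGGCAGAGGGCggggcggg
ZNF844 and ZNF20 anchor, chr19:12201818-12201845, plus strand: gtgaataaCCTGCAGGGGGCagcagagc
ZNF20 and ZNF625 anchor, chr19:12252131-12252158, minus strand: gtgaataaCCTGCAGGGGGCagcagaga
ZNF253 anchor, chr19:19976949-19976976, plus strand: cccttcagCCATAAGATGGCggctgcgg
ZNF253 and ZNF93 anchor, chr19:20012041-20012068, plus strand: cccttcagCCATAAGATGGCggctgcgc
The printed ZNF83 and ZNF20 pairs point toward each other across their loops, whereas both ZNF253 matches lie on the plus strand. The anchors of the ZNF20 loop also hold another near-copy pair that points apart. It lies at chr19:12203462-12203489 on the minus strand and chr19:12250737-12250764 on the plus strand. The loop from ZNF878 and ZNF844 to the same second anchor, also in all 4 lists, holds a near-copy pair as well. Its plus-strand match at chr19:12170444-12170471 is a near-copy of the printed ZNF20 and ZNF625 match. The match at ZNF253 also overlaps the core of the YY1 motif. These are matches of letters and no measure of what was bound there.

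ZNF loops were fewer in both THZ1 libraries than in both vehicle libraries. The vehicle mean was 238.5 ± 41.7 loops (SD, n = 2) and the THZ1 mean 113 ± 18.4 (SD, n = 2), for a log2 ratio of -1.08 with an SD of 0.35. Loops that joined ZNF genes at both anchors numbered 130, 175, 73 and 62, and the log2 ratio of their means was -1.18 (SD 0.35). Loops with a ZNF gene at 1 anchor numbered 79, 93, 53 and 38. The groups did not overlap in either class. With 2 libraries a group the exact two-sided permutation test has 6 splits and cannot give a p below 0.333, which was the p of each of these comparisons. Below, 2 groups of libraries that do not overlap have this p, and groups that overlap have a higher one. The other loops of chromosome 19 were also fewer with THZ1, at 627, 699, 451 and 397. ZNF loops made up 25%, 27.7%, 21.8% and 20.1% of all loops of the chromosome. The log2 ratio of ZNF loops to other loops of the chromosome was thus lower with THZ1 by 0.43 (difference -0.43, SD 0.18), and the libraries of the conditions did not overlap (exact two-sided permutation p = 0.333). Leaving out the cluster from ZNF565 to ZNF573, a choice made after its values were seen, gave a log2 ratio of the means of -0.99 and a difference from the rest of the chromosome of -0.35.

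**Figure D1:**
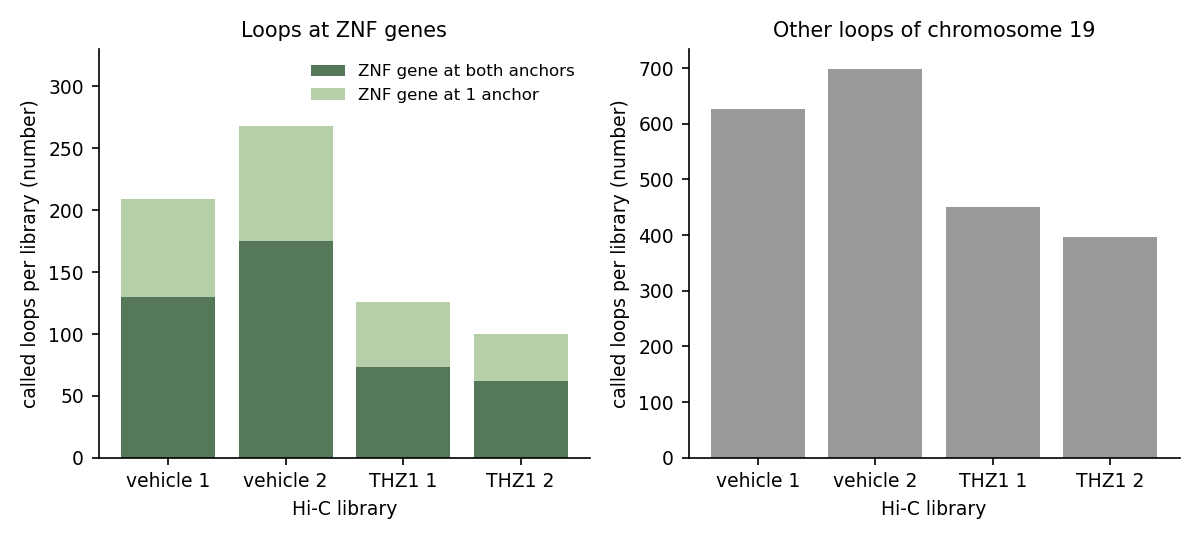
Number of called loops in each of the 4 Hi-C libraries, at ZNF genes (left, split into loops with a ZNF gene at both anchors and at 1 anchor) and in the rest of chromosome 19 (right), on vertical axes of different range that both start at 0. The vehicle libraries held 209 and 268 ZNF loops, and the THZ1 libraries 126 and 100.

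Most of the difference in number lay in loops with the narrowest anchors. ZNF loops with anchors of 5 kb numbered 142, 206, 84 and 50, those with anchors of 10 kb 52, 43, 21 and 33, and those with anchors of 25 kb 15, 19, 21 and 17. Only the first 2 widths were lower with THZ1 without overlap, and loops with 25 kb anchors overlapped between conditions (log2 ratio of means 0.16, exact permutation p = 0.667). In the rest of the chromosome the means for 5 kb anchors were 482.5 and 261.5 and those for 25 kb anchors 48 and 51, so the same order of widths was seen there. The median donut expectation of ZNF loops, the local background that the loop caller sets a loop against, was 5.42, 5.22, 6.80 and 8.07 contacts, higher with THZ1 in both libraries. The part of depth and of this background in the number of calls was not tested.

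By size, the smallest ZNF loops had the lowest ratio of THZ1 to vehicle. ZNF loops of up to 50 kb numbered 54, 58, 20 and 18, a log2 ratio of means of -1.56 (SD 0.13). Those over 50 and up to 90 kb numbered 49, 65, 34 and 23 (log2 ratio -1, SD 0.49). Those over 90 and up to 200 kb numbered 61, 79, 32 and 27 (log2 ratio -1.25, SD 0.32). ZNF loops over 200 and up to 500 kb numbered 37, 54, 30 and 26 (log2 ratio -0.70, SD 0.41). In these 4 classes the conditions did not overlap. ZNF loops over 500 kb numbered 8, 12, 10 and 6 and overlapped (exact permutation p = 0.667). In the rest of the chromosome the log2 ratio went from -0.99 for loops of up to 50 kb to 0.79 for loops over 500 kb, where both THZ1 libraries were higher, at 22 and 16 against 10 and 12.

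**Figure D2:**
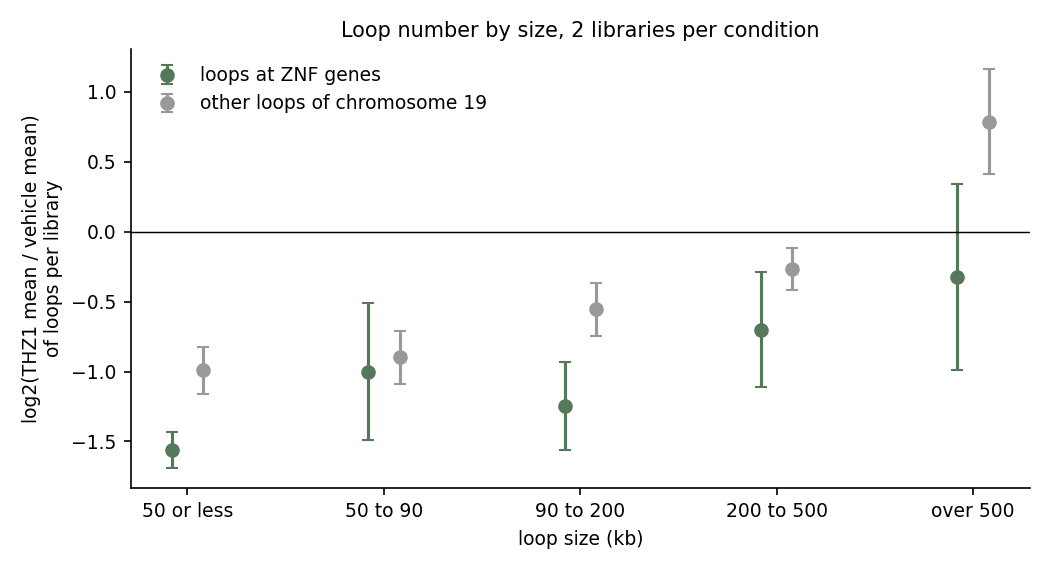
Log2 ratio of the THZ1 mean to the vehicle mean of loops per library in 5 size classes, for ZNF loops and the other loops of chromosome 19, with bars for the SD of the log2 ratio from the 2 libraries of each condition. ZNF loops lay below 0 in each class, and their bar crossed 0 only over 500 kb.

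The median ZNF loop measured 95 and 100 kb with vehicle and 117.5 and 127.5 kb with THZ1, a log2 ratio of 0.33 (SD 0.098). The limit of 90 kb is that of the subloops which condensin is described to form. Loops up to this limit made up 49.3% (95% Wilson interval 42.6 to 56.0), 45.9% (40.0 to 51.9), 42.9% (34.6 to 51.6) and 41.0% (31.9 to 50.8) of ZNF loops. The intervals cover counting error only and overlapped one another, while the difference of the means was -5.66 percentage points (SD 2.73). It was 0.10 points for loops with ZNF genes at both anchors and -13.6 for those with a ZNF gene at 1 anchor, against -9.94 in the rest of the chromosome and -11.2 over the genome. Within an anchor width the difference was 2.81 percentage points for ZNF loops with 5 kb anchors, 1.32 with 10 kb and 0 with 25 kb, and the log2 ratio of median sizes was -0.023, -0.18 and 0.26. The conditions overlapped in each of these widths, and the part of anchor width in the larger median was not tested. ZNF loops with ZNF genes at both anchors had medians of 82.5, 95, 90 and 100 kb, which overlapped (exact permutation p = 0.667).

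The 249 genes fell into 20 groups when genes less than 500 kb apart were joined, and 11 of them held at least 3 genes. In 9 of these 11 clusters both THZ1 libraries had fewer loops than both vehicle libraries. The cluster from ZNF565 to ZNF573 (26 genes, chr19:36673178-38307940) had 19, 30, 5 and 6 loops, 4.45-fold fewer with THZ1 (log2 ratio -2.16, SD 0.50). The cluster from ZNF653 to ZNF791 (26 genes, chr19:11594242-12750912), which had the most loops in all 4 libraries, had 40, 53, 23 and 22. The cluster from ZNF175 to ZNF331 (40 genes, chr19:52074536-54083523) had 36, 47, 19 and 14. The mean of the cluster from ZNF575 to ZNF180 (23 genes, chr19:44029649-45004576) was 2.65-fold lower with THZ1, at 22, 23, 10 and 7 loops, and that of the telomeric cluster from ZNF264 to ZNF446 (43 genes, chr19:57702868-58992597) 2.63-fold lower, at 19, 23, 10 and 6. The cluster on the short arm next to the centromere, from ZNF101 to ZNF254 (37 genes, chr19:19779605-24312770), had 25, 38, 19 and 15 loops.

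The other clusters had fewer loops in the vehicle libraries than the clusters named so far. From ZNF414 to ZNF846 (14 genes, chr19:8574562-9903856) the loops numbered 13, 11, 12 and 9 and overlapped. From ZNF628 to ZNF835 (16 genes, chr19:55987984-57183151) they numbered 8, 8, 7 and 6, and from ZNF554 to ZNF77 (5 genes, chr19:2819866-2944969) 8, 6, 5 and 4. The 3 genes from ZNF546 to ZNF780A (chr19:40490041-40596850) had 2, 4, 2 and 2 loops, and the 5 from ZNF302 to ZNF792 (chr19:35168544-35455133) 2, 2, 1 and 0, a 4-fold ratio of means that rests on 5 calls. Whether clusters differed from one another was not tested.

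**Figure D3:**
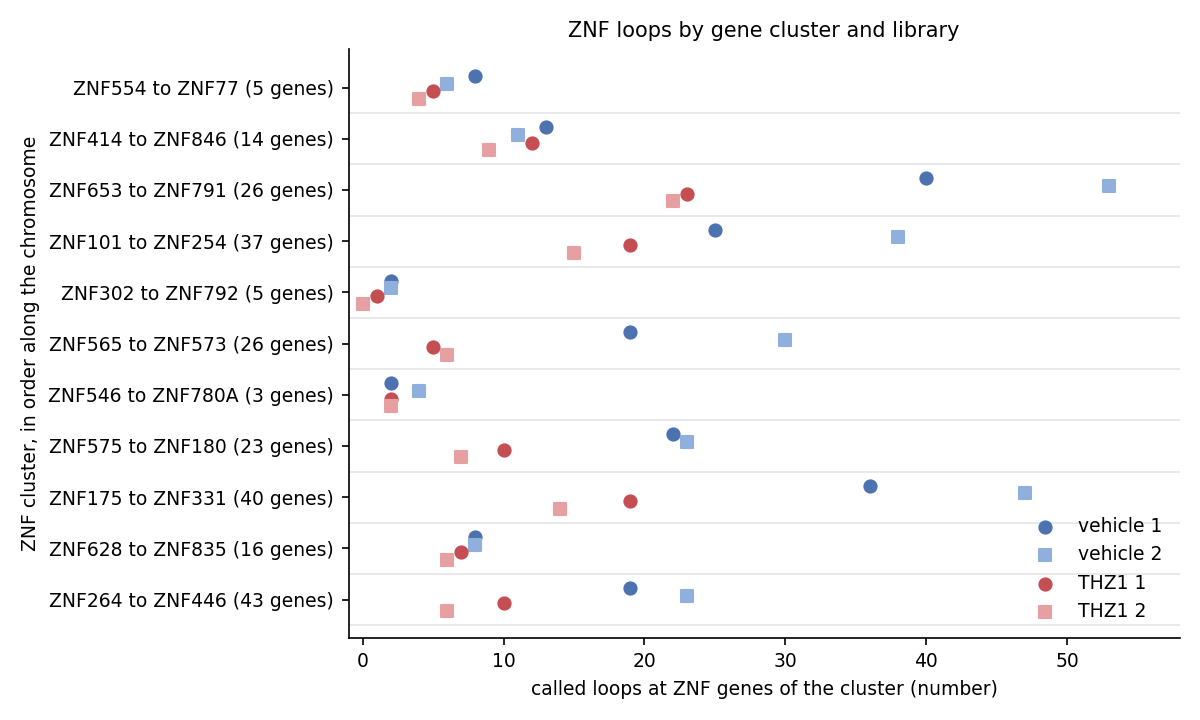
Number of called ZNF loops in each library for the 11 clusters of at least 3 ZNF genes, in order along chromosome 19, with circles for replicate 1 and squares for replicate 2. The THZ1 points of the ZNF565 to ZNF573 cluster, at 5 and 6, lie farthest below their vehicle points, at 19 and 30 as a ratio of the means.

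By gene, 95 of 249 ZNF genes had fewer loops in both THZ1 libraries than in both vehicle libraries (38.2%), 4 had more (1.61%), and 150 overlapped. The background was 31.3% lower and 1.87% higher for 1231 other protein-coding genes of chromosome 19, and 21.4% lower and 2.4% higher for all protein-coding genes. The share of ZNF genes with fewer loops was above both and nearer to that of its own chromosome. The mean ZNF gene had 1.88, 2.42, 1.05 and 0.928 loops. The median log2 ratio of loops per gene, with 0.5 added to both means, was -0.85 over the 209 ZNF genes with a loop, -0.58 over the other genes of the chromosome and -0.42 over all genes.

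Of the 12 ZNF genes with the most loops over all 4 libraries, 6 lay in the cluster from ZNF653 to ZNF791. ZNF625 had 8, 10, 5 and 6 loops, and the annotated read-through gene ZNF625-ZNF20, which overlaps it, had the same. Their neighbor ZNF20 had 7, 8, 5 and 5, ZNF69 5, 9, 4 and 3, and ZNF491 5, 6, 4 and 4. The conditions did not overlap for these 5 genes, whereas ZNF763, in the same cluster, had 4, 7, 4 and 5 loops and overlapped. ZNF77, of the small cluster near the short-arm telomere, had 7, 5, 4 and 3. ZNF846 had 4, 5, 5 and 4 loops, with no difference between the means.

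Among ZNF genes with a mean of at least 4 loops, larger differences stood in 3 other clusters. ZNF225 had 7, 8, 1 and 1 loops (log2 ratio -2.42 with 0.5 added) and its neighbor ZNF224, which encodes a KRAB repressor, 7, 8, 1 and 2 (log2 ratio -2.00), all in the cluster from ZNF575 to ZNF180. ZNF665 had 7, 8, 2 and 2 loops, ZNF611 4, 10, 3 and 0, and ZNF83 5, 9, 3 and 1, all in the cluster from ZNF175 to ZNF331. ZNF253 had 6, 8, 2 and 2. Genes with a lower mean were left out here, also where their log2 ratio was lower. ZNF567, named after its values were seen, had 2, 6, 0 and 0 loops (log2 ratio -3.17 with 0.5 added). It lies in the cluster from ZNF565 to ZNF573. Neighbors share loops, since 1 anchor with its flanks can reach several genes, so these genes are not independent.

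The 4 ZNF genes with more loops in both THZ1 libraries, named after their values were seen, were ZNF317, with 0, 0, 2 and 3, ZNF784, with 0, 1, 3 and 2, and the overlapping ZNF580 and ZNF581, each with 0, 1, 3 and 3. No loop in any library was found at 40 ZNF genes (16.1%), against 188 of the other 1231 genes of the chromosome. The first 10 of these by position were ZNF177 and ZNF560 and, in the cluster from ZNF101 to ZNF254, ZNF708, ZNF738, ZNF493, ZNF208, ZNF257, ZNF676, ZNF98 and ZNF492. Other genes of that cluster, ZNF253 and ZNF91 among them, had loops in all 4 libraries.

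A smaller share of the ZNF loops was anchored at a ZNF start site with THZ1. A start site of a ZNF gene lay in an anchor of 161, 210, 82 and 65 loops, which is 77.0% (95% Wilson interval 70.9 to 82.2), 78.4%, 65.1% and 65.0% (55.3 to 73.6) of the ZNF loops. The mean number of such loops was 2.52-fold lower with THZ1 (log2 ratio -1.34, SD 0.36). ZNF loops without a start site in an anchor numbered 48, 58, 44 and 35, and the log2 ratio of their means was -0.42 (SD 0.30). The conditions did not overlap in either. For loops at other genes of chromosome 19, the share with a start site of those genes was 70.2%, 70.1%, 63.1% and 61.0%, and loops with one were 1.78-fold fewer with THZ1. The excess of ZNF loops over loops at other genes in this share was 7.54 ± 1.07 percentage points for the vehicle pair (SD, n = 2) and 3 ± 1.44 for the THZ1 pair, a difference of -4.55 points (exact permutation p = 0.333). Within anchors of 5 kb the share at ZNF genes was 77.5%, 77.7%, 67.9% and 68%, within those of 10 kb 76.9%, 81.4%, 71.4% and 60.6%, and within those of 25 kb 73.3%, 78.9%, 47.6% and 64.7%, so it was lower with THZ1 without overlap in each width (a split chosen after seeing the data). Ends of ZNF genes lay in an anchor of 19.6%, 15.3%, 18.3% and 23.0% of ZNF loops, which overlapped (exact permutation p = 0.667).

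**Figure D4:**
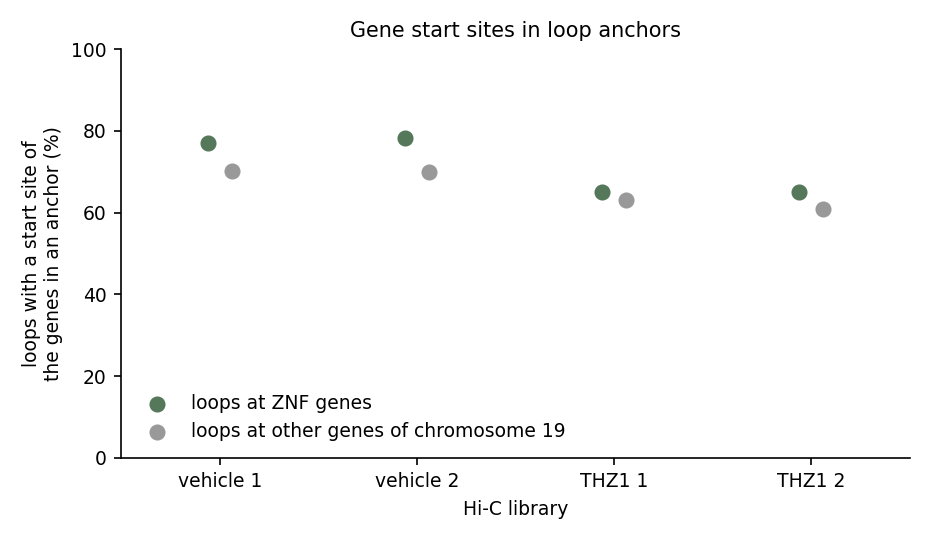
Share of loops with a start site in an anchor, in percent for each library, for ZNF loops (start sites of ZNF genes) and for loops at other genes of chromosome 19 (start sites of those genes). Shares at ZNF genes were 77.0% and 78.4% with vehicle and 65.1% and 65.0% with THZ1.

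Among loops with ZNF genes at both anchors, the same gene lay at both in 20, 22, 6 and 8 loops, and 1 loop, in vehicle replicate 2, joined different clusters. The free anchor of loops with a ZNF gene at 1 anchor lay at another protein-coding gene in 61 of 79, 71 of 93, 40 of 53 and 31 of 38 loops. These are 77.2%, 76.3%, 75.5% and 81.6% of the loops.

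Loops of 1 list were looked up in the others to see which ZNF loops the conditions shared. With a match when both anchor midpoints lay within 20 kb, 48, 48, 45 and 46 ZNF loops were found in all 4 lists, which is 23.0%, 17.9%, 35.7% and 46.0% of each library's ZNF loops, against 37.6%, 34.5%, 52.8% and 60.2% of the other loops of the chromosome. The share was lower for ZNF loops in each library, a difference that was not tested. Of the vehicle lists, 54 ZNF loops were in both and in neither THZ1 list, with a median size of 70 kb in replicate 1 and 75 kb in replicate 2. Of the THZ1 lists, 7 were in both and in neither vehicle list, with a median of 370 kb. As shares these were 25.8% and 20.1% of the vehicle and 5.56% and 7% of the THZ1 ZNF loops, and 17.5%, 16.7%, 3.99% and 4.53% among other loops. The sizes differed likewise among the other loops of the chromosome. Their medians were 60 and 65 kb for vehicle-only loops and 385 kb in both replicates for THZ1-only loops. A loop that a list lacks was not called there, which does not show that its contacts were absent.

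The vehicle-only ZNF loops, from which examples were chosen after their values were seen by the most contacts, were mostly short and joined neighbors. A 35-kb loop from ZNF442 to ZNF799 had 46 and 50 contacts in the vehicle libraries against donut expectations of 14.5 and 16.2. A 50-kb loop within ZNF83, whose second anchor also reached ZNF611, had 44 and 50 against 18.2 and 21.9. A 70-kb loop at ZNF441 had 41 in both libraries against 11.3 and 11.4. Of the 54, 10 lay in the cluster from ZNF653 to ZNF791, 9 in that from ZNF175 to ZNF331, 8 in that from ZNF264 to ZNF446 and 7 in that from ZNF575 to ZNF180. In the cluster from ZNF565 to ZNF573 there were 6, and 3 of these ended at the same anchor, chr19:38145001-38150000, which lies within ZFP30 and has no ZNF gene within 10 kb.

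The 7 THZ1-only ZNF loops, all given here, were longer. They joined ZNF266 to ZNF121 over 150 kb, ZNF317 to ZNF846 over 660 kb and ZNF737 to ZNF85 over 370 kb. The others had a ZNF gene at 1 anchor: ZNF765 and ZNF761 (330 kb), ZNF93 (425 kb), ZNF77 (525 kb), and ZNF784 with ZNF580 and ZNF581 (115 kb). This last loop had 34 and 35 contacts in the THZ1 libraries, 7.84 and 9.03 times the donut expectation, and its anchors are 5 kb wide.

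The strength of a loop, taken as the log2 of observed contacts over the donut expectation, had a median of 2.12 and 2.21 over the ZNF loops of the vehicle libraries and 1.90 and 1.76 over those of the THZ1 libraries. The difference of the means was -0.34 (SD 0.12) on the log2 scale, and -0.39 for loops with ZNF genes at both anchors, whose medians were 2.08, 2.23, 1.88 and 1.66. Other loops of chromosome 19 had nearly the same median strength as ZNF loops with vehicle. ZNF loops minus other loops came to 0.0035 and 0.072 with vehicle and -0.17 and -0.19 with THZ1, a difference of -0.21 (SD 0.051, exact permutation p = 0.333). Each library's median is over its own list, and among loops with 25 kb anchors this difference was 0.019.

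To compare like with like, loops with identical anchors in all 4 lists were tested across the genome with edgeR, on the observed contacts with the donut expectation as offset. Of 2617 such loops, 27.6% were called weaker with THZ1 and 0.0382% stronger at a Benjamini-Hochberg adjusted p of 0.05, with a median log2 change of -0.41. Of the 18 ZNF loops among them, 9 were called weaker and 0 stronger, 13 had an unadjusted p under 0.05, all 18 had a negative log2 change, and the median was -0.58. Of 8 with ZNF genes at both anchors, 5 were called (median -0.70), and of 10 with a ZNF gene at 1 anchor, 4. Of 65 other loops of the chromosome, 17 were called weaker (median -0.39) and 1 stronger. At the ZNF loops the observed contacts changed by a median of -0.28 and the donut expectation by 0.35 on the log2 scale, against -0.012 and 0.40 over all loops tested. The count of 9 became 3 without vehicle replicate 1, where 226 of all loops were called, and 0 without vehicle replicate 2, THZ1 replicate 1 or THZ1 replicate 2, where 0 of all 2617 were, although 9 to 11 had an unadjusted p under 0.05 in each of these 4 edgeR fits. It became 2 with TMM normalization and no expectation (108 of all loops weaker and 67 stronger). It became 0 in DESeq2 with the donut expectation, where 7 had an unadjusted p under 0.05.

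Among the ZNF loops called weaker, the 3 with the largest change all lay in the cluster from ZNF175 to ZNF331. A 35-kb loop within ZNF28, whose second anchor also reached ZNF468 and ZNF320 (chr19:53320001-53325000 and chr19:53355001-53360000), had 28, 29, 18 and 19 contacts, against donut expectations of 2.24, 2.57, 3.49 and 3.56. Its log2 change was -1.17 (SE 0.24, edgeR adjusted p = 0.00407), and the THZ1 libraries lay below the vehicle libraries without overlap. A 675-kb loop from ZNF83 to ZNF845 and ZNF525 (chr19:53190001-53195000 and chr19:53865001-53870000), whose near-copies of the CTCF core are printed above, had 31, 34, 21 and 14 contacts where 0.544 to 0.721 were expected. The ratios of 56.9, 56.1, 32.0 and 19.4 rest on these small expectations. The log2 change of this loop was -1.15 (SE 0.26, edgeR adjusted p = 0.00524). A 50-kb loop with an anchor at ZNF616 (chr19:52640001-52645000 and chr19:52690001-52695000) had 36, 53, 35 and 35 contacts, and donut expectations of 7.37, 8.32, 13.7 and 12. Its log2 change was -1.06 (SE 0.21, edgeR adjusted p = 0.00372), and its donut expectations stood farther apart between conditions than its contacts. Without vehicle replicate 2, THZ1 replicate 1 or THZ1 replicate 2, none of these 3 loops passed the threshold (edgeR adjusted p = 0.0581 to 0.121). With TMM and no expectation the log2 changes were -0.61 for ZNF28 (edgeR adjusted p = 0.235), -0.87 for ZNF83 (0.0453) and -0.33 for ZNF616 (0.43).

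The other called ZNF loops had smaller changes. A 155-kb loop at ZNF91, whose protein represses SVA elements, had 51, 32, 33 and 29 contacts and a log2 change of -1.02. The 190-kb loop from ZNF224 and ZNF225 to ZNF235 had 28, 34, 24 and 27 contacts (log2 change -0.85). The 50-kb loop from ZNF844 and ZNF20 to ZNF20 and ZNF625, whose motif copies are also printed above, had 61, 62, 48 and 44 (log2 change -0.75), and an 80-kb loop from ZNF878 and ZNF844 to the same anchor 59, 71, 44 and 45 (log2 change -0.50). At ZNF541 an 85-kb loop had 70, 72, 45 and 49 contacts (log2 change -0.71), and at ZNF565 a 45-kb loop had 43, 46, 38 and 44 (log2 change -0.59). The smallest difference of the 18 was that of a 70-kb loop at ZNF575, with 43, 39, 54 and 44 contacts (log2 change -0.018, edgeR adjusted p = 0.962). The loop from ZNF253 to ZNF253 and ZNF93 had 38, 45, 46 and 36 contacts and did not pass the threshold (log2 change -0.51, edgeR adjusted p = 0.0719).

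**Figure D5:**
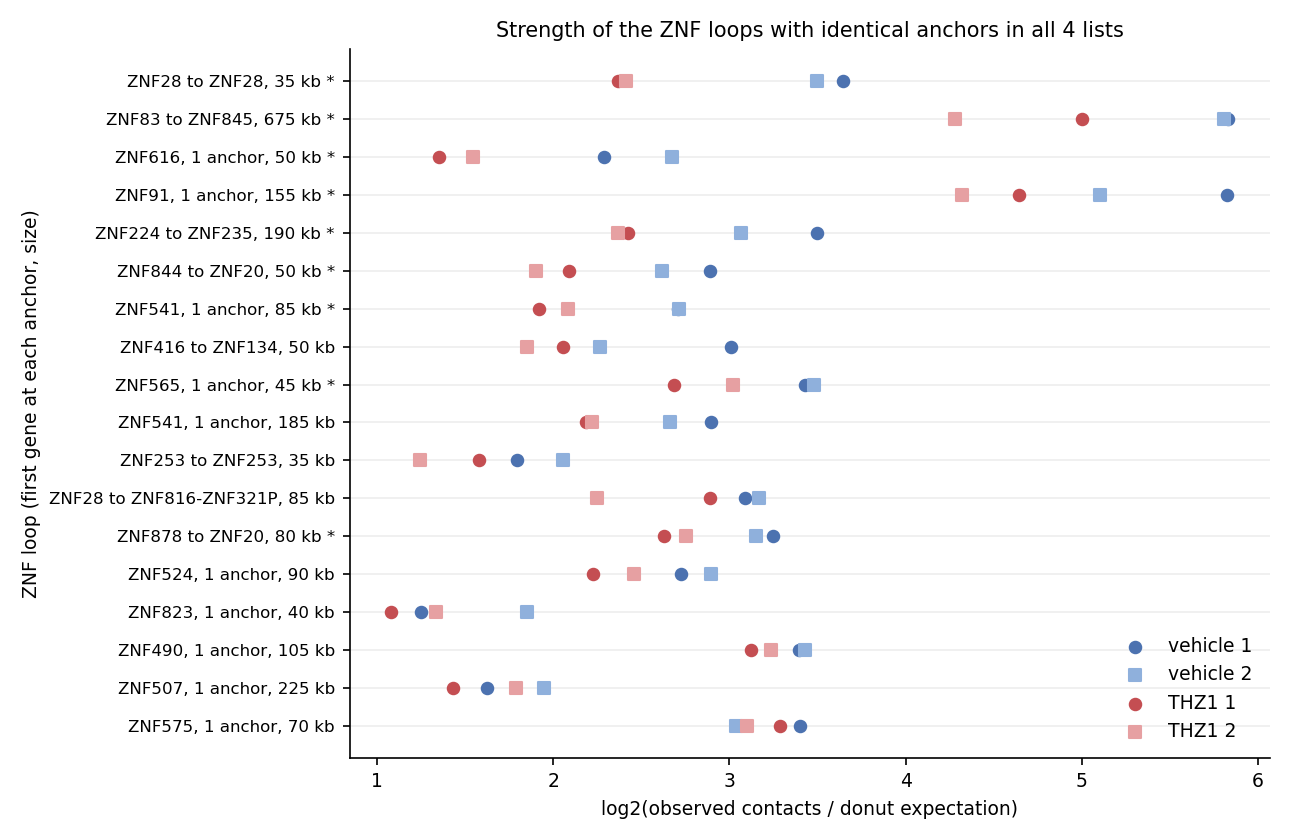
Log2 of observed contacts over the donut expectation in each library for the 18 ZNF loops with identical anchors in all 4 lists, ordered by log2 change, with the first ZNF gene at each anchor and the size, and an asterisk for the 9 loops called weaker. Both THZ1 points lie to the left of both vehicle points in all rows but those of ZNF823, ZNF507 and ZNF575.

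The longest ZNF-to-ZNF loops found in all 4 lists within 20 kb stayed within their clusters. A 690-kb loop joined ZNF772 to ZNF329 in the telomeric cluster, with 16, 23, 15 and 21 contacts. The 675-kb loop from ZNF83 came next, followed by a 500-kb loop from ZNF699 and ZNF559 to ZNF846 and a 345-kb loop from ZNF491 to ZNF20 and ZNF625. This last loop had 26, 26, 18 and 29 contacts. A 270-kb loop joined ZNF699 and ZNF559 to ZNF121. Since pixel widths can differ between lists, contacts of these loops are not compared across libraries.

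Contact domains, the squares of raised contact that Arrowhead calls on a 10 kb grid, held a whole ZNF gene in 3 and 7 cases with vehicle and 12 and 14 with THZ1 (log2 ratio of the means 1.38, 2.6-fold, no overlap). This log2 ratio was 0.89 without vehicle replicate 1 and 2.12 without vehicle replicate 2. All domains of chromosome 19 numbered 20, 35, 55 and 55, and those of the whole genome 1198, 1398, 2477 and 2345. The number was thus higher with THZ1 on the chromosome and over the genome as a whole. ZNF genes inside a domain numbered 14, 76, 77 and 94, and vehicle replicate 1 alone stood apart. In both THZ1 libraries a domain of 1690 kb (chr19:36670001-38360000) or 1700 kb (chr19:36670001-38370000) held all 26 genes of the cluster from ZNF565 to ZNF573, with corner scores of 0.659 and 0.523. Neither vehicle list had a domain that held a ZNF gene of this cluster. The same cluster had the lowest ratio of THZ1 to vehicle loops of the 11 clusters above.

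Other ZNF domains were shared or were particular to a library. A domain that held 20 genes from ZNF283 to ZNF180 began at chr19:44330001 in vehicle replicate 2 and in both THZ1 libraries and measured 710, 720 and 690 kb. A domain of 240, 220, 250 and 260 kb around ZNF541 and one of 170, 210, 220 and 210 kb around ZNF175 were in all 4 lists. Domains from ZNF91 of 830 and 930 kb were in both THZ1 lists. Vehicle replicate 2 had a domain of 790 kb with 27 genes from ZNF548 to ZNF329 and one of 980 kb with 24 genes from ZNF823 to ZNF791, and vehicle replicate 1 had one of 690 kb with 12 genes from ZNF317 to ZNF846. In the THZ1 lists smaller domains lay in these regions, such as those of 190 and 210 kb over 4 genes from ZNF823 to ZNF440.

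The tables of loops unique to a condition, which the authors deposited for pooled libraries, held 13 ZNF loops among 39 vehicle-unique loops of chromosome 19 and 2 among 3 THZ1-unique ones. Of the 13, 6 had ZNF genes at both anchors, such as ZNF155 to ZNF230 and ZNF222 (40 kb), ZNF547 and ZNF548 to ZNF416 (190 kb) and ZNF420 to ZNF875 (250 kb). The THZ1-unique loops had a ZNF gene at 1 anchor, at ZNF491 (45 kb) and at ZNF20, ZNF625 and ZNF136 (475 kb). These tables have no replicates, and no test was made on them.

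The CTCF core occurred in 22.2% of all 11157 bins of 5 kb on chromosome 19 and in 14.2% of the 2246 bins within ZNF genes and their flanks. Among the 5 kb anchors of ZNF loops it occurred in 31.3%, 34.7%, 36.6% and 36.8%, and among those of other loops of the chromosome in 42.4%, 42.8%, 47.1% and 46.7%. The GC content was 48.4% over all bins and 43.7% over the bins within ZNF genes and flanks. In the anchors it was 48.2%, 47.8%, 47.6% and 47.5% for ZNF loops and 53.2%, 53.2%, 52.7% and 52.8% for other loops. The part of base composition in the motif shares was not tested. ZNF loops with 5 kb anchors held a plus-strand match in the first and a minus-strand match in the second anchor in 14 of 142, 19 of 206, 12 of 84 and 10 of 50 cases, which is 9.86%, 9.22%, 14.3% and 20%, against 8.86%, 10.5%, 16.5% and 16.8% of other loops. The opposite arrangement occurred in 5, 14, 5 and 5 ZNF loops. Of the 18 ZNF loops tested for strength, 7 had the first arrangement, those printed above from ZNF83 and from ZNF844 among them. The 7 include the ZNF507 loop, whose anchors are 25 kb wide. No such count was made for the other loops with identical anchors in all 4 lists, so this one has no background.

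The anchors of a ZNF-to-ZNF loop shared little exact sequence in most cases. Of all stretches of 30 bases in the first anchor, a median of 0.241%, 0.222%, 0.272% and 0.241% recurred in the second on either strand for 5 kb loops with ZNF genes at both anchors, against 0.141%, 0.161%, 0.161% and 0.181% for loops without a ZNF gene. For 5 kb loops with a ZNF gene at 1 anchor the median was higher than both, at 0.264%, 0.252%, 0.308% and 0.362%. A stretch of 100 bases recurred in 4 of 89, 4 of 138, 3 of 52 and 4 of 35 of the 5 kb ZNF-to-ZNF loops, and in 1 of 440, 4 of 525, 1 of 291 and 1 of 232 loops without a ZNF gene. With a ZNF gene at 1 anchor it recurred in 1 of 53, 1 of 68, 1 of 32 and 0 of 15 loops. The ZNF28 loop with the largest change was among the ZNF-to-ZNF loops with such a stretch, with 22.7% of stretches of 30 bases and 5.59% of stretches of 100 bases shared between its anchors. For the ZNF83 loop these shares were 3.96% and 0.388%. How many contacts came from reads that map to either copy was not tested.

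Partners of KRAB zinc fingers, listed by their known roles, were counted in the same way. Of 17 genes for corepressors and silencing factors, 4 had fewer loops in both THZ1 libraries, 0 had more and 13 overlapped. The share of lower genes was near the background of 21.4% for all genes. Some of the 13 had a higher mean with THZ1. Of these, named after their values were seen, HDAC2 had 1, 2, 4 and 2 loops, CBX3 3, 3, 5 and 3 and MORC2 3, 2, 4 and 3. The 4 lower genes follow. SETDB1, the methyltransferase that TRIM28 recruits, had 4, 7, 2 and 0 loops, DAXX, a histone chaperone, 3, 5, 1 and 1, CHD4, the helicase of the NuRD complex, 3, 2, 1 and 1, and CBX5, which encodes HP1 alpha, 5, 5, 4 and 4. TRIM28 itself, which lies beyond the telomeric ZNF cluster at chr19:59055431-59062089, had 0 in every list. The last anchor of the chromosome in any list ended at position 59030000, so no call reached TRIM28 or its flanks. Of 19 other zinc finger genes of chromosome 19 with symbols such as ZFP, ZSCAN or ZBTB, 5 were lower (ZBTB32, ZBTB7A, ZFP14, ZFP30 and ZFP82), 0 higher and 14 overlapped, 7 of them without a loop in any list. The background for the other genes of chromosome 19 was 31.3% lower. ZFP14, ZFP82 and ZFP30 lie among the ZNF genes of the cluster from ZNF565 to ZNF573, with 1, 1, 0 and 0 loops, 1, 2, 0 and 0, and 4, 4, 1 and 1.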

How the data were processed

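Arima-HiC of MDA-MB-231 cells was processed by the authors with Juicer 1.6, and the loop lists name juicer_tools 1.19.02; hg19 is from the submitters' processing notes, and the settings of HiCCUPS and Arrowhead are not given in the sources used here. In the lists the authors deposited, observed values are raw contact counts at the peak pixel of a loop, expected values are a signal in units of contacts from 4 neighborhoods, the FDR is a q-value (a p-value type), and the domain value is Arrowhead's corner score. Anchors 5, 10 and 25 kb wide are merged in 1 list. HiCCUPS calls more loops in deeper maps, and reads per library are not in the lists, so numbers of loops carry depth as well as structure.

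Genes were taken from GENCODE 44 as lifted to GRCh37, protein-coding ones only. All 2263 distinct anchors of chromosome 19 lay in sequenced stretches of that build. Libraries were grouped by the labels and compared by exact two-sided permutation. Loops with identical anchors in all 4 lists and all 4 expectations above 0 (2617 of 2624) went into edgeR 4.0.16 under R 4.3.3 (quasi-likelihood, no block, adjusted over all 2617), after a test on simulated data, with DESeq2 1.42.0 as an alternative. Python 3.11.15, pandas 2.3.3, scipy 1.17.1 and matplotlib 3.10.9 served for the rest. Wilson intervals are at 95%.

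The ZNF genes, gene lists and tests were chosen with earlier results of these data known. Named were the 12 ZNF genes with the most loops, up to 5 with the largest difference in each direction among those with a mean of at least 4 loops and no overlap, up to 10 without loops, the clusters of at least 3 genes, up to 3 called loops in each direction and the 5 longest shared ZNF-to-ZNF loops; further names are said to be chosen after their values were seen, or complete a list. The authors' tables of unique loops were described without a test. Alternatives were the flanks, the anchor width, a stricter FDR, the expectation, a count filter, the normalization, single libraries left out and the replicate number as a block.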

Additional observations from a re-analysis of the deposited data

How the results depend on the processing

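Loop lists give calls, not full contact maps, so depth, local background and anchor width bear on every number, and the exact permutation test of 4 libraries cannot go below 0.333. Of 159 values recomputed under alternatives for 12 results, 133 stayed within the spread between libraries or 1.5 times the count. Among these, the log2 ratio of ZNF-to-ZNF median sizes did not keep its direction throughout. It was 0.098 in the main setting, -0.025 with 5 kb anchors alone and 0 without vehicle replicate 1. The others follow, and the cause was not tested. With 25 kb anchors alone, the log2 ratio of ZNF loop numbers was 0.16, its difference from the rest of the chromosome 0.075, the strength difference -0.029, that from the rest 0.019, the log2 ratio of ZNF-to-ZNF numbers -0.42 and the difference in loops of 90 kb or less 0. With 10 kb anchors alone, the ZNF-to-ZNF ratio was -0.81, the size ratio -0.18 and the small-loop difference 1.32 points. With 5 kb anchors alone, these were -0.023 for size, 2.81 points, and -0.19 for strength. Without flanks, the size ratio was 0.23, the small-loop difference -2.06 points and the strength difference from the rest -0.30; that difference was -0.14 with 25 kb flanks, -0.28 with start sites and -0.14 with the bottom-left expectation, and the size ratio of ZNF-to-ZNF loops with start sites was 0.51.

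Of 120 cluster values (log2 ratio with 0.5 added to both means) 13 moved beyond the spread between libraries, all with 1 anchor width or start sites alone. Another 5 turned to higher with THZ1 among loops with 25 kb anchors: ZNF554 to ZNF77 (log2 ratio 1), ZNF302 to ZNF792 (1), ZNF575 to ZNF180 (1.58), ZNF628 to ZNF835 (2.32) and ZNF264 to ZNF446 (0.42). The overlapping cluster from ZNF414 to ZNF846 had 0.74 there and 0.29 with 10 kb anchors, ZNF546 to ZNF780A 1 with 10 kb anchors, and ZNF565 to ZNF573 -1 with 10 kb and -2.81 with 25 kb anchors, against -2.06. Of the 9 ZNF loops called weaker, 2 calls were made with TMM and 2 with DESeq2 size factors without an expectation, 0 in DESeq2 with the donut expectation, and 0 to 3 with 1 library left out.

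Whether replicate numbers pair the libraries cannot be settled from these values. The correlation of the replicate differences of both conditions was 0.017 over 2617 loops, so no shared effect of the replicate number was seen there. With the replicate block, edgeR called 9 ZNF loops weaker and 0 stronger, and 770 of all loops weaker against 721 without it; the log2 ratio of ZNF loop numbers was -1.08, and no ZNF count of calls changed. All cluster alternatives were chosen after seeing the data, as were the fits without the ZNF565 to ZNF573 cluster and without read-through genes, which kept the direction of ZNF loop number and strength.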
